A study of Mus musculus with 12 samples.

Results

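The respiratory chain genes described here are 88 nuclear genes for subunits, and for a few assembly factors, of the mitochondrial respiratory complexes and the ATP synthase. They were chosen by name: every gene whose array name starts with Nduf, Sdh, Uqcr, Cox4i, Cox5, Cox6, Cox7, Cox8 or Atp5, without the Ndufaf assembly factors. The rule matched 138 probes for 89 names. Of these, 130 probes for 88 genes were well above background on at least 2 of 12 arrays, out of 37125 probes for 24106 genes that passed in all, and the gene that did not pass, Cox8c, was above background on 0 arrays. By name, 38 genes belong to complex I, 8 to complex II, 8 to complex III, 16 to complex IV and 18 to complex V, the ATP synthase. The names are those of the array and are older than current use, so that Atp5s and Atp5sl (now Dmac2l and Dmac2) are counted with complex V.

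Whole ear skin of C57BL/6J mice was measured 4 h after imiquimod (IMQ), a small molecule that activates Toll-like receptor 7 (TLR7), or without treatment. Treated mice received 62.5 mg of cream holding 5% IMQ once on both ears, and untreated mice no cream, so cream and IMQ cannot be told apart. The genotypes were Tlr7-/-, Tlr9-/-, Tlr7-/-Tlr9-/-, Card14-/- and wild type (WT). TLR7 and TLR9 are endosomal receptors for nucleic acids, and CARD14 is a scaffold of NF-kappaB signalling in keratinocytes. The IMQ groups had 1 array for Tlr7-/-, Tlr9-/- and WT and 2 arrays for Tlr7-/-Tlr9-/- and Card14-/-, and each untreated group had 1, giving 7 IMQ and 5 untreated arrays. The RNA on an array, 200 ng, came from a pool of 6 to 8 mice. The labels do not tell whether repeat arrays came from separate pools, and p-values therefore measure only the spread between these arrays.

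The respiratory chain passes electrons from NADH and succinate through complexes I to IV to oxygen and pumps protons, and the ATP synthase uses the proton gradient to make ATP. Most subunits are encoded in the nucleus, a few core subunits in mitochondrial DNA. Many nuclear genes of the chain carry binding sites for the transcription factors NRF1 and GABP (an ETS factor) near their start, while complex IV also has isoforms typical of striated muscle, of which Cox7a1 and Cox8b are known from brown fat too.

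On 12 arrays, 60.1% to 65.7% of probes were well above background. Array brightness, as the 75th percentile of processed signals, was 527 to 779 on IMQ arrays and 1070 to 1236 on untreated arrays, with no overlap. Slide 2 held the 4 IMQ arrays from Tlr7-/-Tlr9-/- and Card14-/- mice and slide 1 the other 8 arrays, where 4 of the 5 untreated arrays filled the first row. Signal strength goes with treatment, and on slide 1 array row nearly does, so their part in the results cannot be told apart from it. The Tlr7 probe well above background on 11 arrays read 4.03 and 5.77 (log2 signal) on IMQ arrays of Tlr7-/- and Tlr7-/-Tlr9-/-, against 8.12 on the WT IMQ array. The Card14 probe read 9.65 in Card14-/- and 11.3 in WT IMQ skin. The Tlr9 probe read 11.05 in Tlr9-/- and 11.39 in WT IMQ skin; the labels do not tell whether it lies in the deleted part, so it checks nothing.

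Promoters of 73 members were matched by symbol in RefSeq (GRCm38.p6), and 4 are shown. Sdha, Atp5h and Atp5g2 were taken from members that were lower after IMQ on average and hold NRF1 or ETS letters. Cox8b was added and holds neither. The choice thus rests on these data. Each run is the 250 bases before the start, on the strand of the gene, with matches in capitals. The letters searched on both strands were GCGCA and GCGC with any 1 base between them (NRF1), CCGGAAG (ETS), CAGCTG (E-box), and CTA and TAG with any 4 bases between them (MEF2). Sdha, the flavoprotein of complex II (chr13:74350241-74350490, minus strand), held 3 NRF1 matches. Atp5h, a stalk subunit of the ATP synthase (chr11:115419920-115420169, minus strand), held 1 NRF1 and 1 ETS match. Atp5g2, a gene for the c-ring subunit (chr15:102671048-102671297, minus strand), held 1 NRF1 match. Cox8b, the striated muscle form of subunit 8 (chr7:140900447-140900696, minus strand), held 1 E-box.
Sdha: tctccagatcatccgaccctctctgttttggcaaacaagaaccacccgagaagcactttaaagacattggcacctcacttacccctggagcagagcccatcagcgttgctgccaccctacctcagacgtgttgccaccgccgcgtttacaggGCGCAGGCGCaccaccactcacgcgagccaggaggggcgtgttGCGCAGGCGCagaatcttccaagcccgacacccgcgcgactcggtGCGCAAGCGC
Atp5h: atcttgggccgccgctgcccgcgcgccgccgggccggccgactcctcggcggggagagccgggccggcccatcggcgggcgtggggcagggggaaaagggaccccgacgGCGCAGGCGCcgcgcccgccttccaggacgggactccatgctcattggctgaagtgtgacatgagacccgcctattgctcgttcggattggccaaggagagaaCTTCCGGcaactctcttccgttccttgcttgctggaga
Atp5g2: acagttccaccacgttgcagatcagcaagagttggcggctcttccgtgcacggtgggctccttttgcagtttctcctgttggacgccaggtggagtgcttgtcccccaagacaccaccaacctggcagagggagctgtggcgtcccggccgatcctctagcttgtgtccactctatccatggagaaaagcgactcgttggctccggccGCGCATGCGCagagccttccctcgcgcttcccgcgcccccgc
Cox8b: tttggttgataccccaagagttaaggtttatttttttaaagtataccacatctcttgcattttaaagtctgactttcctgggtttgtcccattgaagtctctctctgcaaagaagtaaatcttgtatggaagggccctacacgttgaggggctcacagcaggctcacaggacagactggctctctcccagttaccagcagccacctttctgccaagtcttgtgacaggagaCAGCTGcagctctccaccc

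NRF1 letters were found in 17.8% of the 73 member promoters and in 4.23% of all 27025 genes with a window of the same length. ETS letters were found in 19.2% of members and 7.83% of all genes. E-box letters stood in 8.22% of members and 14.7% of all genes, and MEF2 letters in 0 of 73 members and 3.70% of all genes. NRF1 letters were found in 4 of the 12 promoters of members that were lower after IMQ on average (Atp5c1, Atp5g2, Atp5h and Sdha) and in 9 of the 61 others. The matches describe these windows and show no binding.

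The first question was how the family as a whole stood in IMQ skin relative to untreated skin, over all 5 genotypes. Most members moved little: of the 87 members well above background on all 12 arrays, 15 were lower and 1 higher at a limma adjusted p under 0.05, with genotype as block. The remaining member, Cox7b2, was called higher as well, but had passed the filter only through IMQ arrays. Among all genes, 16.0% were lower and 10.4% higher, so the share of lower members is close to the background. The median response of members was -0.10 on the log2 scale, against -0.07 for all probes. Of 88 members, 37 were lower in all 5 genotypes and 7 higher in all 5, where 25.9% and 15.4% of all genes were. All 7 IMQ arrays lay below all 5 untreated arrays for 22 members and above them for 5, against 13.4% and 8.48% of all genes. In bulk skin, fewer cells of a type and less RNA per cell cannot be told apart.

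The counts depend on the scaling and on single genotypes. With each array scaled to its 75th percentile in place of quantile normalization, 5 members were lower and 10 higher, against 13.1% and 13.5% of all genes. The lower members were Sdhaf2, Sdhaf4, Ndufa10, Ndufs1 and Atp5sl. The higher members were Ndufa2, Ndufa3, Ndufb7, Ndufb10, Ndufs6, Uqcr10, Uqcr11, Uqcrq, Atp5e and Cox7b2. The median of members relative to all probes was 0.02 in place of -0.03. Without the Tlr9-/- pair 0 members were lower, when 2.93% of all genes were. The count was 1 without Tlr7-/-, 4 without WT and 7 without Tlr7-/-Tlr9-/-, when 6.10%, 7.35% and 7.74% of all genes were lower. Over Tlr7-/-, Tlr9-/- and WT alone, whose pairs share slide 1, it was 10, when 13.8% of all genes were lower. With genotype and slide as blocks over all 12 arrays, 30 members were lower and 10 higher, when 31.4% and 18.5% of all genes were. In Tlr7-/-Tlr9-/- and Card14-/- skin IMQ and untreated arrays lay on different slides, so their pairs add nothing to this estimate. It rests on the same 3 pairs, with the same median of members relative to all probes (0.00584), and is no separate check.

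**Figure D1:**
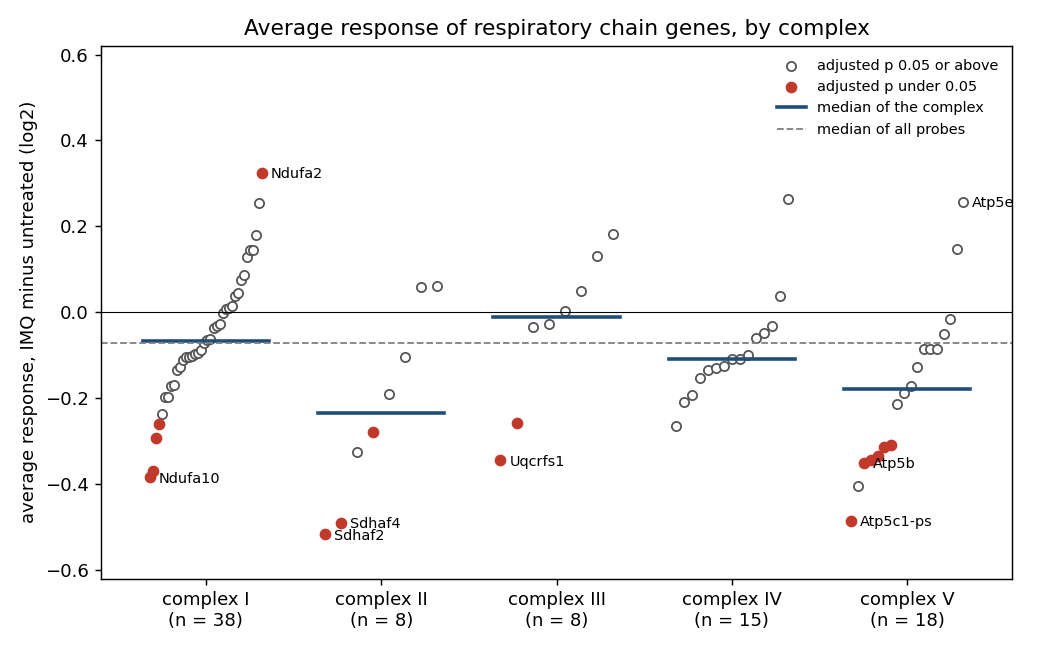
Average response (IMQ minus untreated, log2) of 87 respiratory chain genes, by complex, with Cox7b2 left out. Each point is a gene, filled where the limma adjusted p is under 0.05; bars are medians of a complex and the dashed line is the median of all probes (-0.07). Complexes II and V have medians of -0.23 and -0.18, and the medians of complexes I and III are -0.07 and -0.01.

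Complex I, the NADH dehydrogenase, had 4 lower and 1 higher members of 38, and 2 lower and 5 higher under 75th percentile scaling. Of all genes 16.0% were lower and 10.4% higher, or 13.1% and 13.5% under that scaling. The same shares hold beside the counts of the other complexes below, and no complex was tested against them. Ndufs1, the largest iron-sulfur subunit, read 13.18 to 13.26 (median 13.22, log2 signal) on IMQ arrays and 13.42 to 13.65 (median 13.64) on untreated arrays. The groups did not overlap, and the average response was -0.37 ± 0.07 (SE, 5 genotypes; limma adjusted p = 0.019). Ndufa10, an accessory subunit, read 13.10 to 13.40 on IMQ arrays and 13.48 to 13.77 on untreated arrays, a response of -0.38 ± 0.07 (adjusted p = 0.017). Ndufa6 and Ndufc1, accessory subunits, were lower as well, with responses of -0.29 and -0.26.

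Ndufa2, an accessory subunit, was the 1 complex I member that was higher. It read 14.89 to 15.26 (median 15.02) on IMQ arrays and 14.69 to 14.82 (median 14.74) on untreated arrays, with no overlap and a response of 0.32 ± 0.08 (limma adjusted p = 0.037). The core subunit Ndufv1 had an average response of -0.10, not past the threshold. Its dimmer probe for the same transcript gave -0.38 in a separate fit over all passing probes (limma adjusted p = 0.037). Whether Ndufv1 is called thus depends on the probe. Ndufa4l2, an isoform of Ndufa4 that hypoxia is known to induce, had a response of -0.06, and Ndufa4 one of 0.13, both short of the threshold. Both are counted with complex I by name alone.

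**Figure D2:**
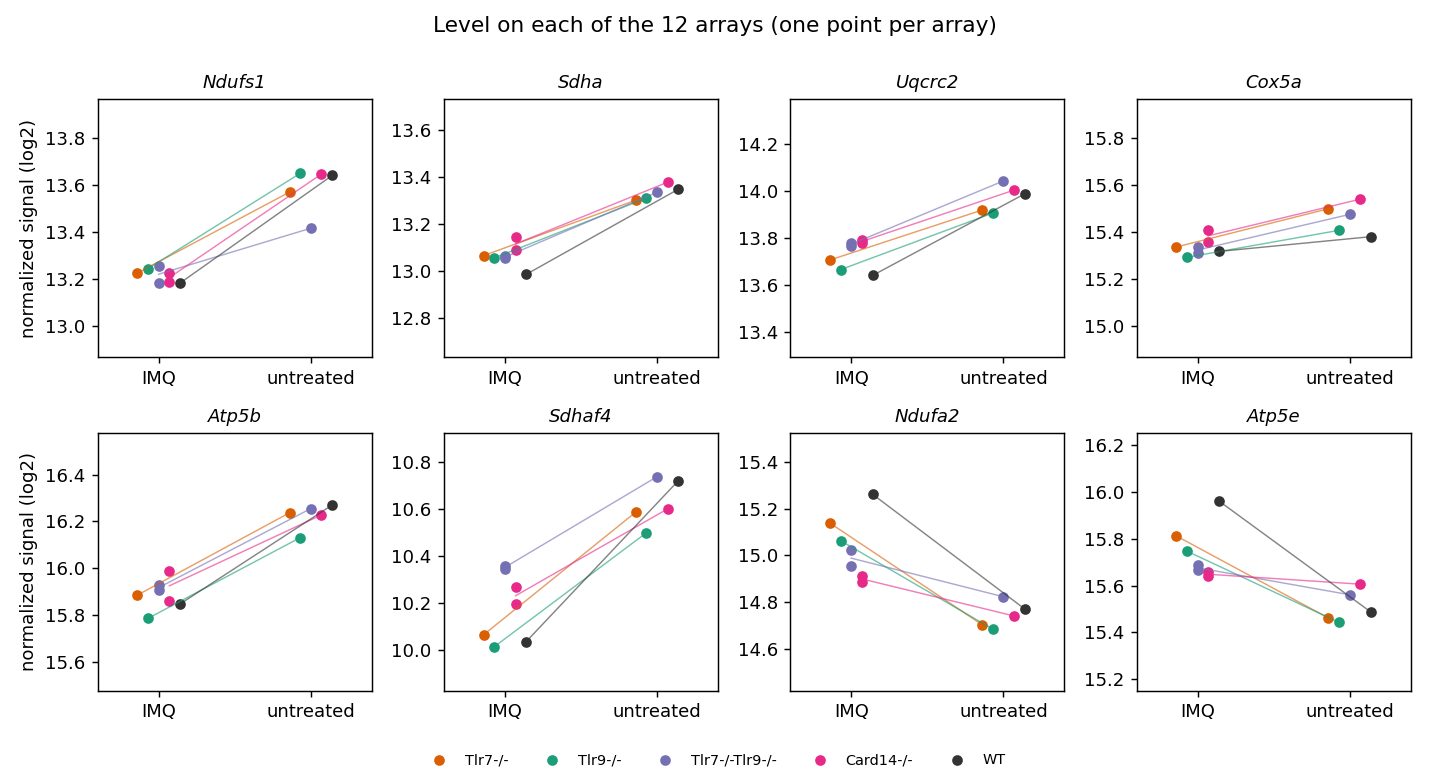
Level on each of the 12 arrays (log2 normalized signal) of 8 members, IMQ left and untreated right; points are arrays, coloured by genotype, and lines join each genotype's means. Every panel spans the same height. All IMQ points of Ndufs1, Sdha, Uqcrc2, Atp5b and Sdhaf4 lie below all untreated points, and all IMQ points of Ndufa2 and Atp5e above them.

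Complex II, succinate dehydrogenase, is shared with the TCA cycle, and its 8 names include 4 subunits and 4 Sdhaf assembly factors. It had 3 lower and 0 higher members. Sdha read 12.99 to 13.14 (median 13.06) on IMQ arrays and 13.30 to 13.38 (median 13.34) on untreated arrays. The groups did not overlap, and the response was -0.28 ± 0.06 (limma adjusted p = 0.026); it missed the threshold under 75th percentile scaling (-0.23, adjusted p = 0.063). Sdhb, the iron-sulfur subunit, had a response of -0.19, and the membrane anchors Sdhc and Sdhd had 0.06 and -0.10, none past the threshold. The dimmer Sdhb probe for the same transcript gave -0.39 in a separate fit over all passing probes (limma adjusted p = 0.028). Whether Sdhb is called thus depends on the probe.

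Of the 4 assembly factors 2 fell. Sdhaf4, which helps the flavoprotein to assemble, read 10.01 to 10.36 (median 10.20) on IMQ arrays and 10.50 to 10.74 (median 10.60) on untreated arrays, with no overlap. Its response was -0.49 ± 0.07 (limma adjusted p = 0.012), and it was called under all 14 alternatives but 1, the fit without Tlr9-/-. Sdhaf2, which attaches FAD to Sdha, read 8.15 to 8.68 on IMQ arrays and 8.79 to 8.98 on untreated arrays. Its response was -0.52 ± 0.11 (adjusted p = 0.022), the largest fall of a member, and in a separate fit over all 37125 passing probes its dimmer probe for the same transcript gave -0.74 (limma adjusted p = 0.016) and the brighter -0.52 (adjusted p = 0.025). Another Sdhaf2 probe, well above background on 3 arrays, gave 0.20, and with the mean of the probes of a gene Sdhaf2, Sdha, Ndufs1 and Ndufa10 were not called.

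Complex III, the cytochrome bc1 complex, had 2 lower and 0 higher members of 8, and 0 lower and 3 higher under 75th percentile scaling (Uqcr10 0.42, Uqcr11 0.32 and Uqcrq 0.32), so the direction of its calls turned. Uqcrc2, a core protein, read 13.64 to 13.79 on IMQ arrays and 13.91 to 14.04 on untreated arrays, with no overlap and a response of -0.26 ± 0.06 (limma adjusted p = 0.032). Uqcrfs1, the Rieske iron-sulfur protein, read 12.91 to 13.48 on IMQ arrays and 13.49 to 13.55 on untreated arrays, a response of -0.34 ± 0.10 (adjusted p just under the threshold at 0.0496). Both missed the threshold under 75th percentile scaling, at -0.20 and -0.30. The 2 bright probes of Uqcrb, a small subunit, disagreed in the fit over all probes: the brighter gave 0.00 and the other 1.01 (limma adjusted p = 0.0097), so its direction is not settled. Uqcrc1, the other core protein, had -0.03 and was not called. Over the whole family, 31 members had more than 1 passing probe, and in 13 of these the probes differed in sign: Atp5j2, Atp5l, Ndufa3, Ndufa10, Ndufb2, Ndufb5, Ndufb8, Ndufs1, Ndufs3, Ndufv3, Sdha, Sdhaf2 and Uqcrb.

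Complex IV, cytochrome c oxidase, had 0 lower members of 16 on average. Its higher member was Cox7b2, a homologue of Cox7b that is best known from testis. Cox7b2 passed the filter only through the IMQ arrays of Tlr9-/- and WT, so a difference there follows from the filter. It was at least 1.47-fold higher in Tlr9-/- (4.67 on the IMQ array, 2.93 on the untreated array) and at least 3.94-fold higher in WT (5.83 and 1.93), each against the lowest signal well above background on the untreated array. Elsewhere it was not well above background. Just outside the filter lay the second probes of Ndufa4l2 and Ndufs5, above background on 1 array each. The nuclear subunits Cox4i1, Cox5a and Cox6c had responses of -0.11, -0.13 and -0.11, none past the threshold; the Cox4i2 isoform, a form of subunit 4 linked to low oxygen, had 0.26 (limma adjusted p = 0.070). Cox6b1 and its testis-enriched form Cox6b2 had -0.21 and 0.04, and Cox7a2l, which takes part in supercomplex assembly, had -0.05, none of them called.

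Complex V, the ATP synthase, had 6 lower and 0 higher members of 18, when 16.0% and 10.4% of all genes were. Under 75th percentile scaling 1 was lower and 1 higher, when 13.1% and 13.5% of all genes were. In all 5 genotypes 12 of 18 were lower, when 25.9% of all genes were. The 6 include the pseudogene Atp5c1-ps and Atp5sl (now Dmac2), which are counted here by name. Atp5b, the catalytic beta subunit, read 15.79 to 15.99 (median 15.89) on IMQ arrays and 16.13 to 16.27 (median 16.24) on untreated arrays. The groups did not overlap, with a response of -0.35 ± 0.06 (limma adjusted p = 0.015). Atp5c1, the gamma subunit of the rotor, had a response of -0.31 ± 0.07 (adjusted p = 0.025). Atp5h and Atp5g2, whose promoters are shown above, had -0.33 and -0.31.

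Under 75th percentile scaling Atp5b, Atp5c1 and Atp5g2 had responses of -0.10, -0.07 and -0.07, and none of the 3 was called. The largest called fall within complex V was that of Atp5c1-ps, a pseudogene of Atp5c1 on chromosome 13 (-0.49 ± 0.12, adjusted p = 0.038, and 0.056 under 75th percentile scaling). Whether its probe also reads Atp5c1 transcripts could not be checked, so this value is uncertain. Atp5sl, named for its likeness to Atp5s, had -0.34 ± 0.06 (adjusted p = 0.016). Atp5a1 and Atp5o, the alpha and OSCP subunits, had -0.19 and -0.08, neither past the threshold. Atp5e, the epsilon subunit, had 0.26 with no overlap between IMQ and untreated arrays (adjusted p = 0.078), and was higher under 75th percentile scaling (0.50, adjusted p = 0.012). Of the c-ring genes Atp5g1, Atp5g2 and Atp5g3, only Atp5g2 was called; the others had -0.13 and -0.09, and the differences between the 3 were not tested.

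The second question was how members responded in each genotype, where a call needs a limma adjusted p under 0.05 and at least 0.5 on the log2 scale, with the spread of groups that had a single array taken from the repeat arrays. In Tlr7-/- skin 4 members were lower and 0 higher, where 10.4% and 9.73% of all genes were called. In Tlr9-/- skin 5 were lower and 1 higher, against 13.5% and 10.8% of all genes. The higher one was Cox7b2, which passed the filter only through the IMQ arrays of Tlr9-/- and WT. That call therefore follows from the filter. In Tlr7-/-Tlr9-/- skin 0 members were called, against 8.50% lower and 9.57% higher of all genes. By limma, 18 of the 88 had an adjusted p under 0.05 and 30 an unadjusted p under 0.05 there, but the largest of the 18 responses was 0.47 in size, under the limit. The medians of member responses in the 5 genotypes lay between -0.12 and -0.06. In Card14-/- skin 3 were lower and 1 higher, against 5.73% and 6.98%; the higher one, Cox7b2, was not well above background on any Card14-/- array, so this call sets values under background against each other. In WT skin 7 were lower and 1 higher, against 20.8% and 14.1%. The higher one was again Cox7b2, and its call follows from the filter as in Tlr9-/- skin. The counts of members were not tested against those shares.

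The lower members in Tlr7-/- skin were Atp5s (-1.01), Sdhaf2 (-0.57), Sdhaf4 (-0.52) and Uqcrfs1 (-0.52). In Tlr9-/- skin they were Atp5c1-ps (-0.68), Sdhaf2 (-0.60), Atp5s (-0.59), Sdhaf3 (-0.55) and Ndufb6 (-0.51). In WT skin they were Sdhaf3 (-1.18), Atp5s (-0.92), Atp5c1-ps (-0.88), Sdhaf2 (-0.84), Sdhaf4 (-0.69), Uqcrfs1 (-0.59) and Ndufa11 (-0.56). The Tlr7-/- calls were lost when any repeat array was left out, and those of Tlr9-/- fell in number. The WT calls were kept in each of these fits. Leaving out a repeat array also lowers the residual degrees of freedom, and no share of all genes is given for these fits. Whether the loss is particular to members thus cannot be told.

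**Figure D3:**
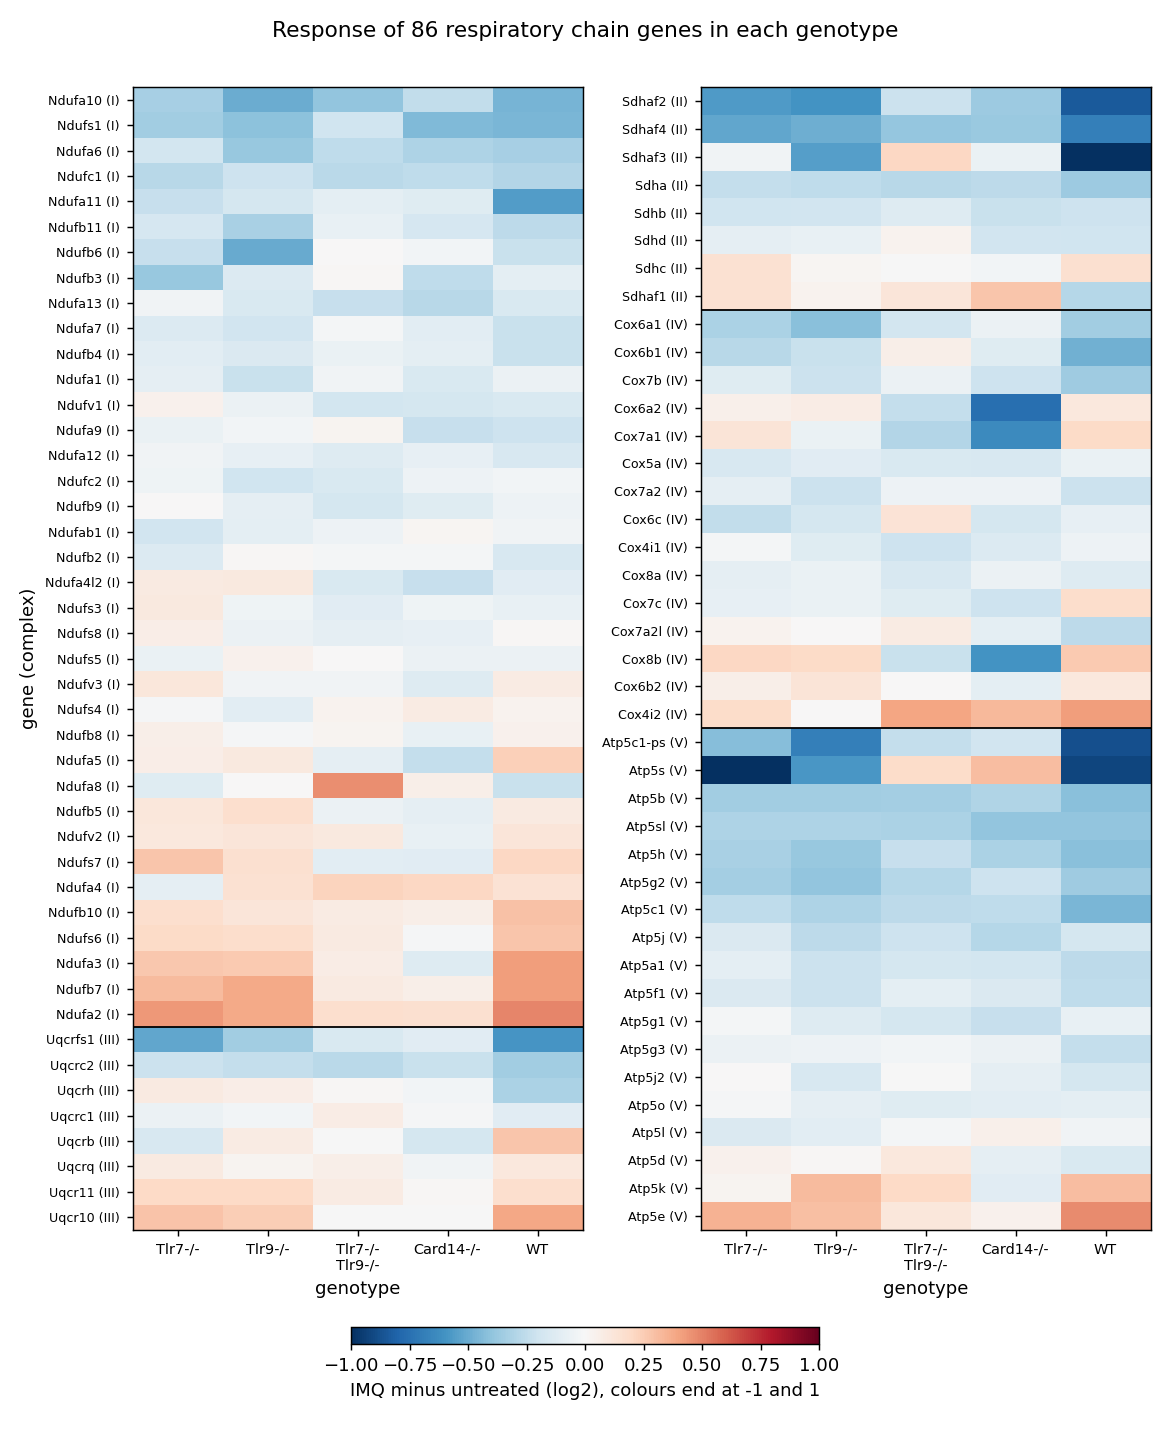
Response (IMQ minus untreated, log2) of 86 members in each genotype, with complexes I and III on the left and II, IV and V on the right, each ordered by average response. Blue cells are lower and red cells higher in IMQ skin; colours end at -1 and 1. Most cells are pale, the rows of Sdhaf2, Sdhaf4 and most of complex V are blue in every genotype, and Cox6a2, Cox7a1 and Cox8b stand out in the Card14-/- column.

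The members lower in Card14-/- skin were the 3 striated muscle isoforms of complex IV. Cox6a2, the muscle form of subunit 6a, read 14.58 and 14.58 on the Card14-/- IMQ arrays and 15.34 on the untreated array, a response of -0.76 (limma adjusted p = 0.011). Cox7a1, the muscle form of subunit 7a, read 13.73 and 13.80 on the IMQ arrays and 14.40 on the untreated array, a response of -0.63 (adjusted p = 0.017). Cox8b, the muscle form of subunit 8, read 14.03 and 14.07 on the IMQ arrays and 14.64 on the untreated array, a response of -0.60 (adjusted p = 0.019).

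In all 3 the Card14-/- untreated array was the highest of the 5 untreated arrays, and the Card14-/- IMQ arrays were the lowest of the 12. In Tlr7-/-Tlr9-/- skin the 3 genes had -0.23, -0.29 and -0.22, short of the size limit. In WT skin they had 0.11, 0.19 and 0.26. The isoforms of other tissues, Cox6a1, Cox7a2 and Cox8a, had -0.06, -0.05 and -0.06 in Card14-/- skin and -0.35, -0.21 and -0.13 in WT skin, none of them called. The Card14-/- calls were lost when any repeat array was left out. Such fits have fewer residual degrees of freedom, and no share of all genes is given for them. They therefore cannot tell whether the loss is particular to these isoforms.

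Skeletal muscle markers were lower beside these isoforms in Card14-/- skin, but not in step with them in every genotype. Of 20 measured markers, 13 were lower and 0 higher in Card14-/- skin (median -0.87), 12 and 0 in Tlr7-/-Tlr9-/- skin (median -0.73), 7 lower and 2 higher in Tlr7-/- skin (median -0.17), 4 lower and 2 higher in Tlr9-/- skin (median -0.33), and 5 lower and 3 higher in WT skin (median -0.01). Of all genes 5.73%, 8.50%, 10.4%, 13.5% and 20.8% were called lower in the same order of genotypes. In Tlr7-/- skin Cox6a2, Cox7a1 and Cox8b had 0.05, 0.13 and 0.21, and in Tlr9-/- skin 0.07, -0.07 and 0.19. The markers' summed signal was 19.29 to 19.75 (log2) on IMQ arrays, lowest on the 4 arrays of slide 2, and 19.55 to 19.82 on untreated arrays, highest in Card14-/-; none of the 20 failed the signal filter. The slow-fibre genes Tnnt1 and Myh7 had -2.26 and -1.87 in Card14-/- skin. Among fast-fibre genes, Myh2, Myh1 and Atp2a1 had -1.67, -1.37 and -0.94 there. Tnni2, Tnnt3, Myh4 and Pvalb had -0.32, -0.39, -0.20 and 0.13 there, and none of these was called. Medians of fat markers were also lower in Card14-/- skin, though the markers went both ways. Over 10 adipocyte markers the median was -0.30, with 7 below 0 (2 called lower, 0 higher). Over 6 brown adipocyte markers, which include Cox8b itself and lack Ucp1, it was -0.27, with 3 below 0 (2 called lower, 0 higher). In WT skin these medians were 0.17 and 0.21. The summed signal of the brown adipocyte markers was 16.20 and 16.22 (log2) on the Card14-/- IMQ arrays, the lowest of the IMQ arrays, and 16.33 on the Card14-/- untreated array. The part of muscle or fat content in the fall of the isoforms was not tested, and slide and these genotypes cannot be told apart.

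**Figure D4:**
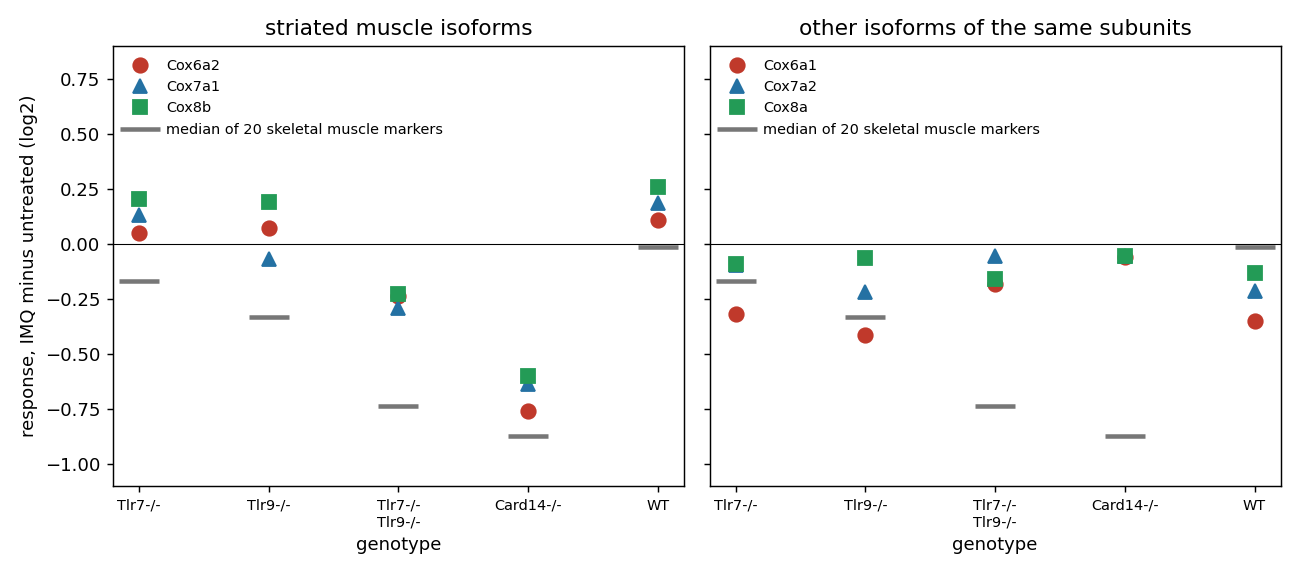
Response (IMQ minus untreated, log2) of the striated muscle isoforms Cox6a2, Cox7a1 and Cox8b (left) and of Cox6a1, Cox7a2 and Cox8a (right) in each genotype; grey bars are the median response of 20 skeletal muscle markers. The muscle isoforms lie at -0.60 to -0.76 in Card14-/- skin and above 0 in WT skin, while the other isoforms lie between -0.41 and -0.05 in all genotypes.

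The third question was whether the response of a member differed between a knockout and WT, or with the loss of Tlr7. The 4 comparisons with WT share the WT arrays. In Tlr7-/- skin 1 member differed from WT, Sdhaf3, an assembly factor of complex II (1.14; limma adjusted p = 0.027), where 2.39% of all genes were higher and 3.07% lower. In Tlr9-/- skin 0 members differed by limma (7 of 88 at an unadjusted p under 0.05), where 0.299% of all genes were higher and 0.809% lower; the all-array filter and normexp each gave 1. In Tlr7-/-Tlr9-/- skin 7 differed, 6 higher and 1 lower, against 12.9% and 9.79%. In Card14-/- skin 9 differed, 4 higher and 5 lower, against 14.0% and 10.4%. Of these, Cox7b2 was the lower member in Tlr7-/-Tlr9-/- skin and 1 of the lower members in Card14-/- skin, where it was not well above background.

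Sdhaf3 read 6.74 in Tlr7-/-, 6.48 in Tlr9-/-, 7.26 in Tlr7-/-Tlr9-/-, 6.84 in Card14-/- and 5.54 in WT on IMQ arrays. On untreated arrays it read 6.77, 7.03, 7.05, 6.91 and 6.72 in the same genotypes. The WT IMQ array was the lowest of all, and the differences in Tlr7-/-Tlr9-/- and Card14-/- from WT were 1.39 and 1.12 (adjusted p = 0.012 and 0.014).

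Atp5s, known as coupling factor B, read 6.39 in Tlr7-/-, 6.70 in Tlr9-/-, 7.43 in Tlr7-/-Tlr9-/-, 7.35 in Card14-/- and 6.35 in WT on IMQ arrays, and 7.04 to 7.40 on untreated arrays. Its response was 1.11 higher in Tlr7-/-Tlr9-/- and 1.23 higher in Card14-/- than in WT (limma adjusted p = 0.028 and 0.022). These are the genotypes whose IMQ arrays lay on slide 2, and slide cannot be told apart from genotype here. The muscle isoforms Cox6a2, Cox7a1 and Cox8b differed from WT by -0.86, -0.82 and -0.86 in Card14-/- skin (adjusted p = 0.014, 0.017 and 0.018). All of these calls in Tlr7-/-, Tlr7-/-Tlr9-/- and Card14-/- skin were lost when any repeat array was left out. With fewer residual degrees of freedom and no share of all genes given, those fits cannot tell whether the loss is particular to members.

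With the 2 Tlr7-deficient genotypes set against the 3 others, 0 members and 0 of all genes were called by limma at an adjusted p under 0.05 (background 0% in each direction). At an unadjusted p under 0.05 there were 0 of 88 members and 755 of 24106 genes. The median difference of members, Tlr7-deficient minus Tlr7-carrying, was 0.04, the same as for all genes.

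The transcripts of the mitochondrial genome, which supply the other subunits of complexes I, III, IV and V, had another pattern. Of 11 measured, 2 were higher and 0 lower on average: ND6 (1.17 ± 0.20, limma adjusted p = 0.015) and ND3 (0.51 ± 0.14, adjusted p = 0.043). The count was 9 of 11 under 75th percentile scaling and 5 of 11 with normexp and with the deposited values. Of all genes 10.4% were higher on average, and 13.5%, 11.25% and 10.98% under these 3 alternatives. Their median response was 0.49, against -0.10 for the nuclear members. By genotype the median was 0.71 in Tlr7-/-, 0.69 in Tlr9-/-, 0.18 in Tlr7-/-Tlr9-/-, -0.05 in Card14-/- and 0.86 in WT. The larger medians are those of Tlr7-/-, Tlr9-/- and WT, whose pairs share slide 1, and the part of slide was not tested; RNA was primed with oligo-dT, and how well that reads mitochondrial transcripts was not tested either.

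**Figure D5:**
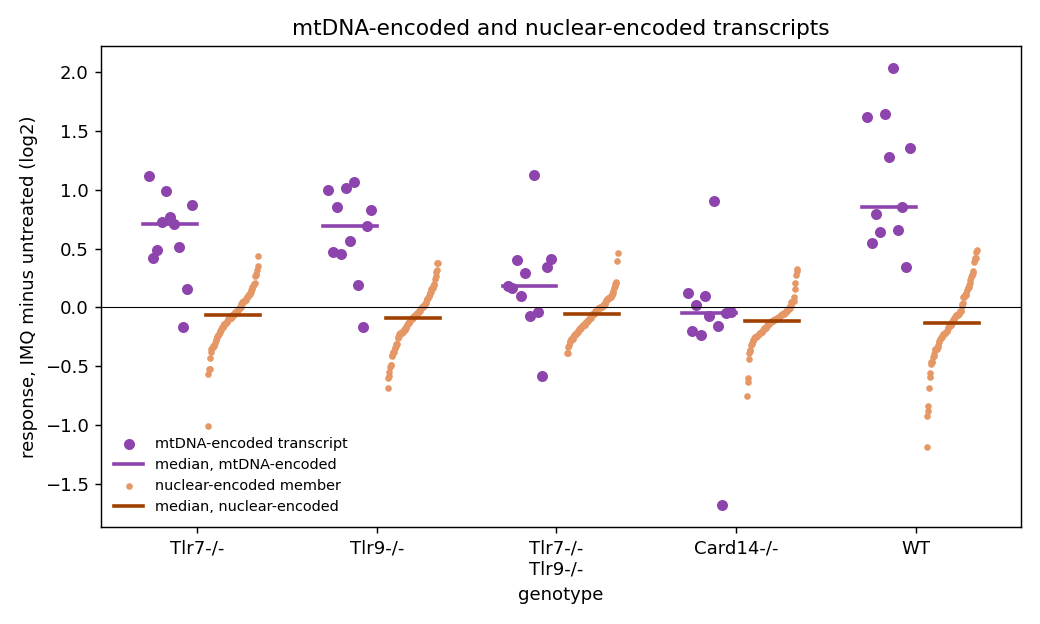
Response (IMQ minus untreated, log2) of 11 mtDNA-encoded transcripts (purple) and 87 nuclear members (orange, sorted) in each genotype, with medians as bars. The purple medians are 0.71, 0.69, 0.18, -0.05 and 0.86 from left to right, while the orange medians stay between -0.13 and -0.06.

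Other mitochondrial genes were read beside the members. Of all genes 16.0% were lower and 10.4% higher on average, and the lists were not tested against these shares. Of 17 TCA cycle genes 7 were lower and 0 higher, with a median of -0.20. The lower TCA cycle genes included Idh2, the NADP-dependent isocitrate dehydrogenase (-0.62 ± 0.06, limma adjusted p = 0.0071), and Sucla2 and Suclg1 of succinyl-CoA ligase (-0.41 and -0.42). The count was 1 to 4 when the pair of 1 genotype was left out. It was 1 without Tlr9-/-, 2 without Tlr7-/-, 2 without Tlr7-/-Tlr9-/-, 3 without WT and 4 without Card14-/-. In the same order, 2.93%, 6.10%, 7.74%, 7.35% and 12.9% of all genes were lower, so calls fell among all genes too. Of 42 assembly factors 4 were lower, among them Surf1, a factor of complex IV (-0.57 ± 0.07, adjusted p = 0.0090), and 2 higher, Timmdc1 of complex I (0.42) and Coa5 of complex IV (0.46).

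Among 17 regulators of mitochondrial gene expression, Pprc1, a coactivator of the PGC-1 family, was higher (0.52 ± 0.07, limma adjusted p = 0.011). Gabpa, the DNA-binding subunit of GABP, was lower (-0.59 ± 0.15, adjusted p = 0.038), as were the nuclear receptor Esrrg (-1.17) and the mitochondrial methyltransferase Tfb1m (-0.63). Nrf1, whose letters stand in the promoters above, had 0.06 and was not called. Of 24 glycolysis and lactate genes 3 were higher, Hk2 and the lactate carriers Slc16a1 and Slc16a3 (0.39, 0.59 and 0.62), and 1 lower, the glucose carrier Slc2a1 (-0.36). Ribosomal protein genes, read as another large family of bright genes, had 1 higher and 5 lower of 87 for the cytosolic ribosome and 6 and 5 of 77 for the mitochondrial ribosome. Under 75th percentile scaling the cytosolic ribosome had 35 higher and 1 lower, so its direction turned with the scaling, and the mitochondrial ribosome had 5 higher and 3 lower.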

How the data were processed

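Values are from 12 single-colour arrays. The spot values are intensities, per the file headers, from Agilent Feature Extraction 10.7.3.1; version 10.5.1.1 stands in the submitters' processing notes. Processed signals are background-subtracted intensities. Log2 values that the authors deposited, which they had background-subtracted and normalized with limma per the series' design text, served only as an alternative. Probe coordinates are on mm9, as deposited.

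Spots of a probe were averaged, 235 probes with an outlier flag left out, and log2 processed signals brought to the same quantiles on all arrays (limma 3.58.1, R 4.3.3, data.table version 1.17.8). A gene was read on its brightest probe among those well above background on at least 2 arrays. The average response was fitted on 10 group values with genotype as block (4 residual degrees of freedom), the responses by genotype and their differences on 12 arrays (2 residual degrees of freedom, from the repeat arrays), and Tlr7 dependence on 5 differences (3 residual degrees of freedom); p-values were adjusted by Benjamini-Hochberg over 24106 genes, or over 37125 probes where single probes are compared. The fits were tested on simulated data. Named by rule are the 8 largest called falls and rises of the same sign in all 5 genotypes, core subunits, isoform sets, the extremes of each genotype, members whose probes disagree, members at the edge of the filter and those that differed from WT; other called members were named after their values were seen. 1 gene under this rule is counted but not reported here. The members and the gene lists were chosen with earlier results of these data known. Alternatives were other scaling, background, filter, probe, slide and size choices and leaving out pairs or arrays. The number of arrays limits the precision. Python 3.11.15, pandas 2.3.3, numpy 2.4.6 and matplotlib 3.10.9 were used.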

Additional observations from a re-analysis of the deposited data

Results flagged for a closer look

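In 5 of 88 members 1 genotype's response lay far from the other 4 (Dixon's test over the 5 responses); chance flags about 1 in 20, and 5.1% of all genes were flagged. These were Atp5c1 in WT (-0.460), Atp5g3 in WT (-0.239), Ndufa4 in Tlr7-/- (-0.089), Ndufv2 in Card14-/- (-0.074) and Sdhb in Tlr7-/-Tlr9-/- (-0.128).

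Responses that differed from that of WT were 1.145 for Sdhaf3 in Tlr7-/- skin. In Tlr7-/-Tlr9-/- skin the differences were 0.641 for Atp5c1-ps, 1.106 for Atp5s, 0.546 for Cox6b1, -3.376 for Cox7b2, 0.685 for Ndufa8, 0.626 for Sdhaf2 and 1.392 for Sdhaf3. In Card14-/- skin they were 0.690 for Atp5c1-ps, 1.233 for Atp5s, -0.864 for Cox6a2, -0.822 for Cox7a1, -2.515 for Cox7b2, -0.858 for Cox8b, -0.546 for Ndufa3, 0.559 for Sdhaf1 and 1.116 for Sdhaf3. Cox7b2 was below background on most arrays, so its fitted differences give no size.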

How the results depend on the processing

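No paired analysis was possible because the groups compared share fewer than 2 replicate numbers; the block of the average response is genotype, which pairs the treated and untreated groups of a genotype and not replicates. For 14 members called on average, the sign was kept in 195 of 195 values under the alternatives, and 122 values were past the threshold. These 14 include Cox7b2, which passed the filter only through IMQ arrays, and leave out Atp5h, Ndufa6 and Ndufc1. The members were picked because they were called, and the alternatives reuse the same arrays, so the kept signs are no independent support. Values below are counts of members or medians of members relative to all probes (log2). Under 75th percentile scaling 10 members were higher and 5 lower on average, against 13.5% and 13.1% of all genes, and the median was 0.0248. The median was -0.0878 with no filter, 0.00584 with slide as block and 0.00584 in the slide 1 genotypes, whose pairs alone set the estimate in both. Higher members were 0 with no filter and 1 among probes above background on all arrays, when 5.33% and 13.1% of all genes were. They were 10 with slide as block and 5 with no genotype block, when 18.5% and 12.3% of all genes were. Lower members were 30 with slide as block, when 31.4% of all genes were. Leaving out 1 pair gave 0 to 10 lower and 0 to 1 higher, when 2.93% to 12.9% and 2.79% to 9.20% of all genes were. The Tlr7 dependence median was 0.106 under 75th percentile scaling and -0.0250 to 0.0307 without 1 genotype. By genotype, 75th percentile scaling moved the median to 0.0271 in Card14-/-, 0.184 in Tlr7-/-Tlr9-/- and -0.0708 in WT, and the counts to 7 in Tlr7-/- and 5 in Tlr7-/-Tlr9-/-. With no filter the median was -0.0528 in Tlr9-/- and -0.0827 in WT, and with the values deposited by the authors 0.0689 in WT. Normexp gave 2 calls in Tlr7-/-, 2 in Tlr9-/- and 1 in Tlr7-/-Tlr9-/-, the mean of probes 1 in Tlr7-/-Tlr9-/-, and the deposited values 2 in Tlr7-/- and 15 in WT. A size limit of 1 gave 1 call in each of Tlr7-/-, Tlr9-/- and Card14-/- and 2 in WT. The call in Tlr9-/- and in Card14-/- was Cox7b2, as was 1 of those in WT. Without 1 repeat array, which leaves fewer residual degrees of freedom, calls were 0 to 0 in Tlr7-/- and Card14-/- and 0 to 3 in Tlr9-/-. For differences from WT, the medians under 75th percentile scaling were 0.0550 in Tlr7-/-, 0.216 in Tlr7-/-Tlr9-/- and 0.0949 in Card14-/-, and -0.154 in Card14-/- with the deposited values. Calls were 2 and 2 in Tlr7-/- with normexp and the deposited values, 1 and 1 in Tlr9-/- with normexp and the all-array filter, 13 in Tlr7-/-Tlr9-/- under 75th percentile scaling, 17 in Card14-/- with the deposited values, and 3 in each of Tlr7-/-Tlr9-/- and Card14-/- with a size limit of 1. Without 1 repeat array they were 0 to 0 in Tlr7-/-, Tlr7-/-Tlr9-/- and Card14-/-. With the mean of probes, 2 differences turned: Sdhaf2 in Tlr7-/-Tlr9-/- to -0.0362 and Ndufa3 in Card14-/- to 0.327. Apart from fewer arrays or genes, the cause of a change was not tested.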

Other observations

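Genes around the chain moved in both directions. Of 15 electron carrier and coenzyme Q genes 3 were higher in IMQ skin on average, Pdss1, which makes the isoprenoid tail (0.64), Etfb (0.25) and Coq6 (0.25), and 2 lower, Coq9 (-0.54) and Coq10a (-0.31; limma adjusted p under 0.05 for each). Of 14 hypoxia response genes 2 were higher, Vegfa (1.99 ± 0.37 SE, adjusted p = 0.018) and Hilpda (1.53 ± 0.17, adjusted p = 0.0082). Of 12 uncoupling and carrier genes 2 were lower, the ADP/ATP carrier Slc25a4 (-0.38) and Cpt1a, which admits fatty acids to mitochondria (-0.41).

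Markers of the cell types of skin also moved on average. Skeletal muscle markers had 8 lower and 1 higher of 20 (median -0.47), adipocyte markers 2 higher and 0 lower of 10, and brown adipocyte markers 1 higher and 1 lower of 6. T cell markers had 4 higher and 1 lower of 6, with Cd2 at 0.86 and Cd3e at 0.80. The lower one, Cd5, moved furthest of the 6 on average and fell in every genotype. Its group levels (log2 signal) were 7.747 to 8.655 in IMQ skin and 9.004 to 9.573 in untreated skin. The T cell markers thus went both ways. Endothelial markers had 5 higher and 1 lower of 8, with Cldn5 at 0.81 and Tek at -0.39. Fibroblast markers had 3 lower of 8, among them Postn at -1.02, and macrophage markers 2 higher of 8. Of 9 neutrophil markers 1 was higher, Retnlg at 2.46, and 0 were lower. On average 4 of the 9 lay below 0, down to -0.75 for S100a8, which was not called. Keratinocyte markers had 1 higher (Dsg3, 0.61) and 1 lower (Krt1, -0.64) of 8. Their part in the values of the respiratory chain genes was not tested.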
